A study of Mus musculus with 14 samples.

Results

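The transcripts of 31 DNA repair enzymes, sorted by the pathway they serve, were followed in RNA labelled as mouse lymph node before and after ionizing radiation. The members were chosen by gene symbol, covering recombination, end joining, excision repair, mismatch repair and direct reversal. Of the 31 genes, 30 had a probe set on the array under their own symbol, for a total of 42 of 12488 probe sets. Lig4, the ligase of end joining, had none. The data came from 14 one-colour arrays in 6 groups, made of 2 genotypes and 3 conditions. Atm+/+ (WT) and Atm-/- (KO) animals each gave 3 untreated arrays, 2 arrays taken 30 min after radiation and 2 arrays taken 120 min after it. Atm encodes the kinase that signals DNA double-strand breaks. The sources used here do not give the radiation dose, strain, age or the design of the Atm-/- allele. The labels do not say whether the replicates of a group came from different mice, and the p-values then reflect the spread of these arrays alone, which may be technical.

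The repair pathways differ in the lesion they act on or in how they mend it. Homologous recombination copies the lost sequence from a sister chromatid, with Brca1 and Brca2 loading the recombinase, Rad52 and Rad54l assisting strand pairing and the helicase Blm resolving joint molecules. End joining seals broken ends directly, with the Ku subunits Xrcc5 (Ku80) and Xrcc6 (Ku70) holding the ends and recruiting the kinase Prkdc. Base excision repair starts from glycosylases that remove single damaged bases, and shares Xrcc1, Lig3, Polb and Parp1 with the repair of single-strand breaks. Nucleotide excision repair cuts out bulky lesions as a short stretch of strand, and mismatch repair corrects replication errors. Mgmt takes alkyl groups off guanine in a single step. Many of these proteins are regulated by phosphorylation, also by Atm, which an expression array does not measure.

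Values are deposited intensities, and changes are differences of quantile-normalized log2(intensity + 32) from a limma fit to all 14 arrays, given ± standard error. This scale understates changes of probe sets with low values. A probe set was tested when it exceeded its array's 40th percentile on 2 or more arrays, which 32 member probe sets of 26 genes did, among 8938 in all. Of the 32, 16 did so on all 14 arrays. Brca1, Rad54l, Nthl1 and Pms2 were on the array but not tested. The 40th percentile lay between 38.3 and 55.28 in intensity. Because each probe set has its own probes, no gene's level is set against another's.

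Library-wide facts bear on what follows. Salivary gland markers were read on every array, with a summed intensity of 7 genes between 38858.0 and 68584.3. Of 9 B cell markers and 10 T cell markers on the array none was at 0, which does not show that each was detected. The 40th percentile was exceeded on all 14 arrays by 5 of the B cell and 2 of the T cell markers. It was exceeded on 2 or more arrays by 9 and 8 of them. The sums over all 9 and all 10 markers were 1130.8 to 2761.1 and 442.1 to 883.1. In such bulk RNA, fewer cells of a type and less RNA per cell cannot be told apart. The p53 target Cdkn1a, which encodes the cell cycle inhibitor p21, read 52.0, 32.3 and 7.1 on the untreated WT arrays and 342.9 and 318.1 at 120 min. KO arrays gave 67.2, 91.5 and 81.7 untreated and 194.1 and 177.5 at 120 min. At 30 min it read 94.2 and 50.1 in WT and 95 and 84.3 in KO. The p53 targets Mdm2, Phlda3, Ccng1 and Btg2 also lay above untreated in WT at 120 min. In KO at 120 min Mdm2 and Phlda3 did so. Ccng1 (221.8 and 240, against 191.2 to 248.8) and Btg2 (839.9 and 658.6, against 493.4 to 825.9) overlapped there. Array KO 30 min A stood apart, with the lowest mean correlation with the other arrays (0.9076, against 0.9252 to 0.9485 on the rest). It held the highest or the lowest of the 14 values for 17 of the 32 tested member probe sets (53.1%), against 32.7% of all tested probe sets. KO 30 min B held 8 such values (25%), against 11.5% of all tested probe sets. KO values at 30 min are given without KO 30 min A too where they move by over 0.2. Those values rest on KO 30 min B alone and are not the more reliable ones.

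No member passed the test in any comparison. Over 11 comparisons and 32 probe sets, 352 tests gave 0 calls by limma at an adjusted p under 0.05, with a smallest adjusted p of 0.332, and 19 had an unadjusted p under 0.05. In WT at 30 min, 0 of 32 were called, against 0.101% of all 8938, and 1 had an unadjusted p under 0.05 (5.02% of all did). In WT at 120 min, 0 were called, against 0.515% of all, and 3 had an unadjusted p under 0.05 (8.66%). In KO, 0 were called at 30 min and at 120 min, against 0% of all at both times, and 0 and 2 had an unadjusted p under 0.05 (8.38% and 7.22%). KO against WT without treatment gave 0 calls, against 0% of all, and 3 unadjusted p under 0.05 (5.48%). At 30 min and 120 min after radiation KO against WT gave 0 calls, against 0.101% and 0.257% of all, and 1 unadjusted p under 0.05 at each time (6.7% and 7.17%). Averaged over the 3 conditions it gave 0 calls (0.168% of all) and 3 unadjusted p under 0.05 (6.44%). Irradiated against untreated, averaged over genotypes and times, gave 0 calls (0.134% of all) and 4 unadjusted p under 0.05 (10.5%). The contrast of responses, KO minus WT, gave 0 calls at 30 min (0.0783% of all) and 0 at 120 min (0.134%), with 0 and 1 unadjusted p under 0.05 (5.59% and 6.99%). The calls over the whole array were few as well, so these counts set the members apart from nothing. Groups that did not overlap were found for 8, 8, 5 and 8 of 32 members in the WT and KO responses at 30 and 120 min, in that order, against 19.5%, 27.3%, 22.6% and 27% of all. Between genotypes they were found for 6 untreated, 10 at 30 min and 13 at 120 min, against 10.2%, 29.9% and 41.7%.

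The 95% intervals, not adjusted for the number of probe sets, show how precisely each change was estimated. They do not set the size that would be called, since a call needs an adjusted p under 0.05. The median standard error over the members was 0.234 for a response, and a 95% interval lay wholly within a change of 1 on the log2 scale, either way, for 26 of 32 probe sets in WT at 30 min and for 23 at 120 min. The same held for 24 and 23 in KO. In the average of all irradiated groups against the untreated ones, 31 of 32 intervals lay within that range, and 18 lay within 0.5. Msh3 was the exception, with an interval from -1.03 to -0.03. Members lay on both sides of no change. In WT at 120 min 16 were above 0 and 16 below, with a median of 0.01 and a median absolute change of 0.181, against 0.190 over all tested probe sets. In KO at 120 min 15 were above and 17 below, with a median of -0.03 and a median absolute change of 0.174, against 0.181. Between genotypes the median absolute difference was 0.187 untreated, 0.295 at 30 min and 0.176 at 120 min, against 0.148, 0.201 and 0.193 over all. Averaged over the 3 conditions it was 0.171, against 0.103. At 30 min 20 of 32 members lay lower in KO, with a median of -0.15, against 51.7% of all tested probe sets. The 30 min and averaged values include KO 30 min A, which held the highest or lowest value of 17 of the 32 members. These summaries are not given without that array, so how far they rest on it is not shown. Single members moved both ways without it. KO minus WT at 30 min went from -0.41 to 0.33 for Parp1 and from -0.43 to -1.27 for Ogg1.

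**Figure D1:**
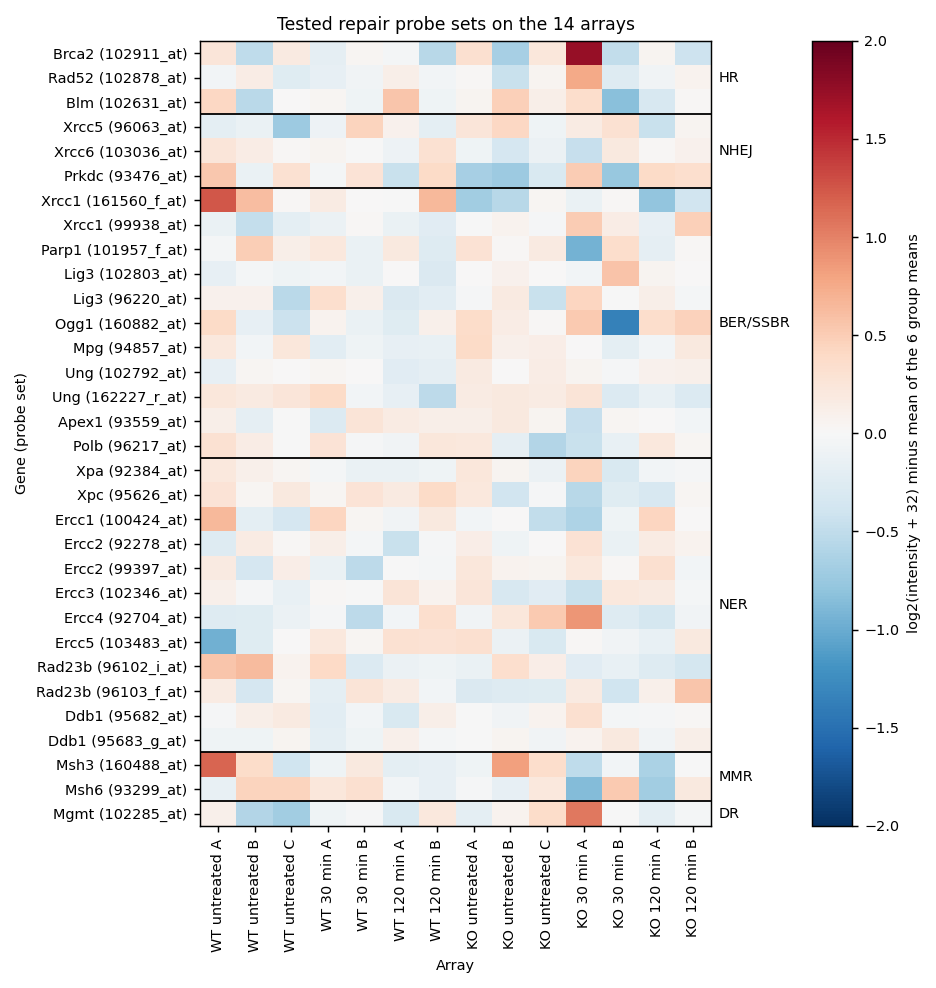
Rows are the 32 tested member probe sets by pathway (HR, homologous recombination; NHEJ, end joining; BER/SSBR, base excision and single-strand break repair; NER, nucleotide excision; MMR, mismatch repair; DR, direct reversal), columns are the 14 arrays, and colour is log2(intensity + 32), before quantile normalization, minus the mean of the probe set's 6 group means. No block of rows changes colour with time or genotype, and the column of KO 30 min A holds 17 extremes among 32 rows.

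Of the homologous recombination enzymes only Rad52 exceeded the 40th percentile on all 14 arrays. Brca1, the scaffold that starts the process, lay between 5.9 and 31.5 on all 14 arrays and was not tested. The same held for the motor protein gene Rad54l, between 1.3 and 45.4, and for a second probe set of Rad52, between 1.0 and 10.8. Such values lie below the 40th percentile of every array, so for Brca1 and Rad54l these arrays give no measure of a response.

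Brca2, which loads the recombinase onto single strands, read 50.0, 16.7 and 46.0 on the untreated WT arrays, 29.0 and 39.2 at 30 min and 34.9 and 15.1 at 120 min. KO gave 53.8, 11.6 and 48.5 untreated, 197.8 and 17.2 at 30 min and 39.4 and 19.6 at 120 min. Its groups overlapped throughout, and 197.8 on KO 30 min A was its only value above 53.8. The KO change at 30 min was 0.72 ± 0.51 (adjusted p = 0.713 by limma) and turned to -0.32 without that array.

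Rad52, which anneals complementary strands, read 126.3, 149.7 and 106.8 untreated in WT, 113.6 and 123.4 at 30 min, and 146.0 and 125.8 at 120 min. In KO the values were 134.8, 88.5 and 138.2, then 245.6 and 105.5, then 123.4 and 139.1. The value of 245.6 again belonged to KO 30 min A, and the change of 0.42 ± 0.26 became -0.06 without it. The WT changes were -0.05 ± 0.26 and 0.11 ± 0.26. Blm, the helicase lost in Bloom syndrome, stayed between 6.7 and 69.6, with changes of 0.05 ± 0.33 and 0.31 ± 0.33 in WT and -0.47 ± 0.33 and -0.36 ± 0.33 in KO, and its KO change at 30 min was -0.94 without KO 30 min A.

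Among end-joining genes Prkdc had the widest changes in KO, all short of a call. Prkdc, the catalytic subunit of the DNA-dependent protein kinase, read 69.1, 31.7 and 54.7 untreated in WT, 36.3 and 52.3 at 30 min and 19.1 and 59.3 at 120 min. Values in KO were 12.2, 10.2 and 24.6 untreated, 67.6 and 9.5 at 30 min and 58.7 and 56.4 at 120 min. All 3 untreated KO arrays lay below all untreated WT arrays, and both KO arrays at 120 min lay above them and within the WT range. KO minus WT without treatment was -0.82 ± 0.28 (adjusted p = 0.818 by limma), and the KO change at 120 min was 0.93 ± 0.31 (adjusted p = 0.606). The 120 min response in KO exceeded that in WT by 1.12 ± 0.44 (adjusted p = 0.635). Skeletal muscle markers, whose summed intensity was 3353.2 to 10634.6 on the untreated KO arrays and 1199.6 to 2952.1 on the untreated WT arrays, differed between the same groups, and the part of muscle RNA in the Prkdc values was not tested.

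Of the Ku genes, Xrcc6 read between 38.6 and 87.0 over the 14 arrays, with changes of -0.07 ± 0.22 and 0.03 ± 0.22 in WT and 0.05 ± 0.22 and 0.25 ± 0.22 in KO. Without KO 30 min A, its lowest array, the KO change at 30 min was 0.47. Xrcc5 read 25.3, 28.0 and 7.9 on the untreated WT arrays and 29.6 and 57.9 at 30 min, groups that did not overlap (0.59 ± 0.26, adjusted p = 0.975 by limma). It exceeded the 40th percentile on 3 of the 14 arrays, and its untreated WT values all lay below that percentile (43.2 to 49.3). Untreated KO arrays read 45.5, 56.1 and 30.0, above the untreated WT arrays (0.55 ± 0.23, adjusted p = 0.903). WT at 120 min read 38.2 and 25.8. Irradiated KO arrays read 41.7 and 49.1 at 30 min and 16.5 and 36.4 at 120 min. These groups overlapped their untreated ones, with changes of 0.39 in WT and 0.04 and -0.37 in KO. A second Xrcc5 probe set stayed between 0.3 and 4.4 and was not tested. With all arrays, the intervals of Xrcc6 exclude a change of 1 either way in each response, and those of Prkdc do not in KO.

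Base excision and single-strand break repair had 12 probe sets of 9 genes, of which 11 were tested. The untested one belonged to Nthl1, a glycosylase for oxidized pyrimidines, which lay between 6.4 and 28.3. Xrcc1, the scaffold that assembles polymerase and ligase at a nick, held the smallest p of all members. Its probe set 161560_f_at read 180.3, 105.3 and 59.3 untreated in WT, 68.4 and 57.8 at 30 min and 57.4 and 108.1 at 120 min. KO values were 23.5, 29.1 and 60.2, then 49.3 and 59.1, then 19.9 and 36.7. The 7 WT arrays spanned 57.4 to 180.3 and the 7 KO arrays 19.9 to 60.2, with an overlap between 57.4 and 60.2. KO minus WT averaged over the 3 conditions was -0.75 ± 0.19 (adjusted p = 0.332 by limma, where 0.168% of all probe sets were called).

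The other Xrcc1 probe set, 99938_at, pointed the opposite way. It read 53.4, 35.4 and 49.9 untreated in WT, 54.6 and 63.8 at 30 min and 53.4 and 48.5 at 120 min. Those in KO were 60.9, 66.8 and 60.2, then 100.8 and 71.9, then 51.5 and 98.0. KO minus WT over the 3 conditions was 0.28 ± 0.12 (adjusted p = 0.759 by limma). The 2 probe sets had opposite signs in 9 of 11 comparisons, so the array gives no single direction for Xrcc1 between genotypes. The suffix _f marks a probe set whose probes can match related sequences. The only Parp1 probe set, 101957_f_at, and Rad23b 96103_f_at carry it too.

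Ung, the glycosylase that removes uracil from DNA and acts in antibody diversification of B cells, was read by 2 probe sets on all 14 arrays. Probe set 162227_r_at read 420.1, 404.2 and 423.5 untreated in WT, 472.4 and 341.0 at 30 min and 313.6 and 237.8 at 120 min. On KO arrays it was 402.2, 408.8 and 399.0 untreated, 428.6 and 287.3 at 30 min and 317.5 and 287.4 at 120 min. At 120 min both arrays of each genotype lay below all 3 untreated ones, with changes of -0.57 ± 0.20 in WT (adjusted p = 0.448 by limma) and -0.38 ± 0.20 in KO (adjusted p = 0.745). How many probe sets over the whole array lay lower in both genotypes at 120 min was not counted.

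The other Ung probe set, 102792_at, varied less, with 164.5, 193.8 and 190.6 untreated in WT, 195.5 and 190.6 at 30 min and 155.9 and 162.3 at 120 min. Its changes at 120 min were -0.14 ± 0.14 in WT and -0.01 ± 0.14 in KO. RNA quality can be read from the Gapdh control probe sets, whose 3' to 5' ratio of intensities in WT was 0.891 and 0.723 at 120 min and 0.902 to 1.01 untreated. In KO it was 0.857 and 0.777, against 0.867 to 0.976. The same ratio of the actin controls overlapped between these groups. It was 1.41 and 1.33 at 120 min against 1.36 to 1.58 untreated in WT. In KO it was 1.35 on both arrays at 120 min against 1.24 to 1.42 untreated. The summed intensity of 9 B cell markers was 1130.8 to 1225.6 in WT at 120 min against 1770.8 to 2437.5 untreated, and 2004.2 to 2761.1 against 1585.3 to 2096.5 in KO. The part of RNA quality and of B cell content in the Ung values was not tested.

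Parp1, which binds strand breaks and recruits Xrcc1, read 104.9, 166.2 and 121.7 untreated in WT, 131.8 and 96.6 at 30 min and 130.2 and 86.6 at 120 min. KO values were 140.0, 111.4 and 128.6, then 41.4 and 148.6, then 92.6 and 112.0. KO 30 min A, at 41.4, lay below the range of the other 13 arrays (86.6 to 166.2), and the KO change of -0.50 ± 0.34 at 30 min became 0.23 without it. Ogg1, the glycosylase for oxidized guanine, showed the reverse case, with 5.1 on KO 30 min B against 38.5 to 104.0 on the other 13 arrays. Its KO change at 30 min was -0.60 ± 0.37 with both arrays and -1.44 without KO 30 min A.

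The remaining enzymes of this pathway were not called either. Apex1, the endonuclease that cuts at a lost base, lay between 113.8 and 208.3, and Mpg, the glycosylase for alkylated purines, between 64.6 and 113.9. Mpg averaged -0.23 ± 0.10 over the irradiated groups (adjusted p = 0.464 by limma, where 0.134% of all probe sets were called). Polb, the gap-filling polymerase, lay between 33.6 and 90.3, and the ligase gene Lig3 between 84.9 and 180.3 by one probe set and 33.4 and 97.0 by the other. The WT changes at 120 min were -0.22 ± 0.17 for Mpg and 0.17 ± 0.21 for Apex1, both with groups that did not overlap, 0.00 ± 0.23 for Polb and 0.00 ± 0.21 and -0.05 ± 0.21 for Lig3.

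**Figure D2:**
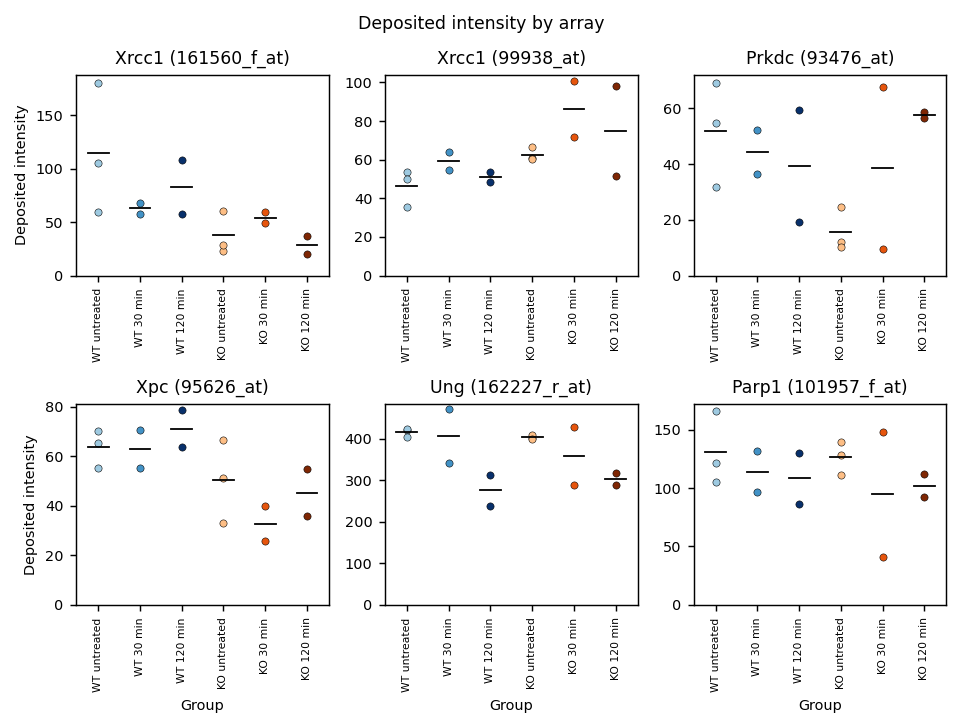
Deposited intensity (vertical axes, from 0) of 6 member probe sets by group (horizontal axes), with a point for each array and a line at the group mean. The 2 Xrcc1 probe sets differ in the direction between genotypes, with overlapping ranges. The group mean of Ung 162227_r_at is lowest at 120 min in both genotypes, while its lowest KO array, 287.3, is at 30 min. Parp1 has 1 low array, 41.4, in KO at 30 min.

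Nucleotide excision repair was the best measured pathway, with 12 of 15 probe sets tested and 10 of them above the 40th percentile on all 14 arrays. Ddb1, part of the complex that finds ultraviolet lesions and an adaptor of Cul4 ubiquitin ligases, was read by 3 probe sets. Probe set 95683_g_at read 764.0, 762.8 and 845.7 untreated in WT, 706.8 and 762.2 at 30 min and 875.9 and 795.8 at 120 min. KO arrays gave 814.7, 845.3 and 777.7, then 852.8 and 940.1, then 774.5 and 890.0. The groups overlapped at 120 min in both genotypes. Changes at 120 min were 0.02 ± 0.14 in both genotypes, with intervals from -0.28 to 0.33 in WT and from -0.29 to 0.33 in KO. Probe set 95682_at lay between 1034.9 and 1615.1 and gave -0.24 ± 0.19 and -0.04 ± 0.19, and the remaining one, between 4.6 and 48.2, was not tested.

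Xpc, which recognizes distorted helix, read 70.2, 55.2 and 65.4 untreated in WT, 55.2 and 70.7 at 30 min and 63.7 and 78.6 at 120 min. Its KO values were 66.5, 33.0 and 51.3, then 25.7 and 39.9, then 36.0 and 54.7. The WT arrays spanned 55.2 to 78.6 and 6 of the 7 KO arrays lay below that range. KO minus WT over the 3 conditions was -0.45 ± 0.13 (adjusted p = 0.429 by limma). Within KO the responses were -0.31 ± 0.22 and -0.07 ± 0.22, and within WT 0.03 ± 0.22 and 0.17 ± 0.22. Without KO 30 min A the KO response at 30 min was -0.06.

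Rad23b, the partner that stabilizes Xpc, was read by 2 probe sets that disagreed. Probe set 96102_i_at read 460.6, 487.4 and 318.7 untreated in WT, 412.1 and 246.0 at 30 min, and 276.4 and 283.2 at 120 min. KO gave 274.6, 389.0 and 334.2, then 254.4 and 271.3, then 248.4 and 231.0. The irradiated groups averaged -0.40 ± 0.14 against the untreated ones (adjusted p = 0.369 by limma). Probe set 96103_f_at averaged 0.24 ± 0.14 in the same comparison and read 222.9 and 316.6 in KO at 120 min against 163.5, 166.3 and 168.6 untreated (0.60 ± 0.23, adjusted p = 0.656). Their signs were opposite in 6 of 11 comparisons.

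Ercc5, the nuclease that cuts on the 3' side of the lesion, read 14.5, 44.7 and 58.7 untreated in WT, 73.1 and 60.6 at 30 min and 79.5 and 79.0 at 120 min. All 4 irradiated WT arrays lay above the 3 untreated ones (0.59 ± 0.29 and 0.78 ± 0.29, adjusted p = 0.975 and 0.479 by limma). In KO the values were 80.7, 51.2 and 40.9 untreated, 60.0 and 54.1 at 30 min and 49.9 and 72.0 at 120 min, which overlapped (0.00 ± 0.29 and 0.08 ± 0.29). The difference between the responses at 120 min was -0.70 ± 0.41 (adjusted p = 0.802). A second Ercc5 probe set lay between 5.4 and 46.9 and was not tested.

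The other incision factors had small responses, apart from Ercc1 and Ercc4. Xpa, which verifies the damage, lay between 42.7 and 92.8, with responses from -0.17 to 0.03, and -0.24 in KO at 30 min without KO 30 min A. The helicase genes of the TFIIH complex, Ercc2 and Ercc3, lay between 62.0 and 190.1 over 2 probe sets and between 73.8 and 140.3, with responses from -0.27 to 0.11 and from -0.05 to 0.21. Without KO 30 min A the KO response of Ercc3 at 30 min was 0.37. Ercc1, partner of the 5' nuclease Ercc4, lay between 77.7 and 232.5, with responses from -0.22 to 0.41, and its KO response at 30 min was 0.13 without that array. Ercc4 read 66.8, 68.1 and 77.4 untreated in WT and 82.5 and 118.0 at 120 min (0.42 ± 0.28, adjusted p = 0.75 by limma). In KO it read 81.5, 107.2 and 139.0 untreated and 60.9 and 81.4 at 120 min (-0.44 ± 0.28, adjusted p = 0.79), and the difference between the responses was -0.86 ± 0.40 (adjusted p = 0.707).

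Mismatch repair and direct reversal rested on few and dim probe sets. Msh3, which with its partner binds small loops, read 155.0, 76.4 and 31.6 untreated in WT, 46.6 and 64 at 30 min and 41.1 and 42.4 at 120 min. KO arrays read 47.1, 116.1 and 74.4, then 26.7 and 48.6, then 22.3 and 50.9. The groups overlapped in each comparison, and the irradiated groups averaged -0.53 ± 0.23 (adjusted p = 0.461 by limma). Msh6, its counterpart for single mispairs, lay between 6.4 and 68.4, with 6.4 on KO 30 min A and 11.2 on KO 120 min A. Its responses were 0.09 ± 0.39, -0.27 ± 0.39, -0.13 ± 0.39 and -0.24 ± 0.39, in WT at 30 and 120 min and then in KO, and the KO value at 30 min was 0.62 without KO 30 min A. Pms2, the endonuclease subunit, lay between 15.5 and 44.1 and was not tested. Mgmt read 95.8 on KO 30 min A and between 5.8 and 47.2 on the other 13 arrays, with changes of 0.40 ± 0.28 and 0.44 ± 0.28 in WT and 0.46 ± 0.28 and -0.18 ± 0.28 in KO. The KO change at 30 min rests on KO 30 min A, since KO 30 min B read 28.9, within the untreated KO values of 21.4, 32.2 and 47.2, and without that array Mgmt fell short of the filter.

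**Figure D3:**
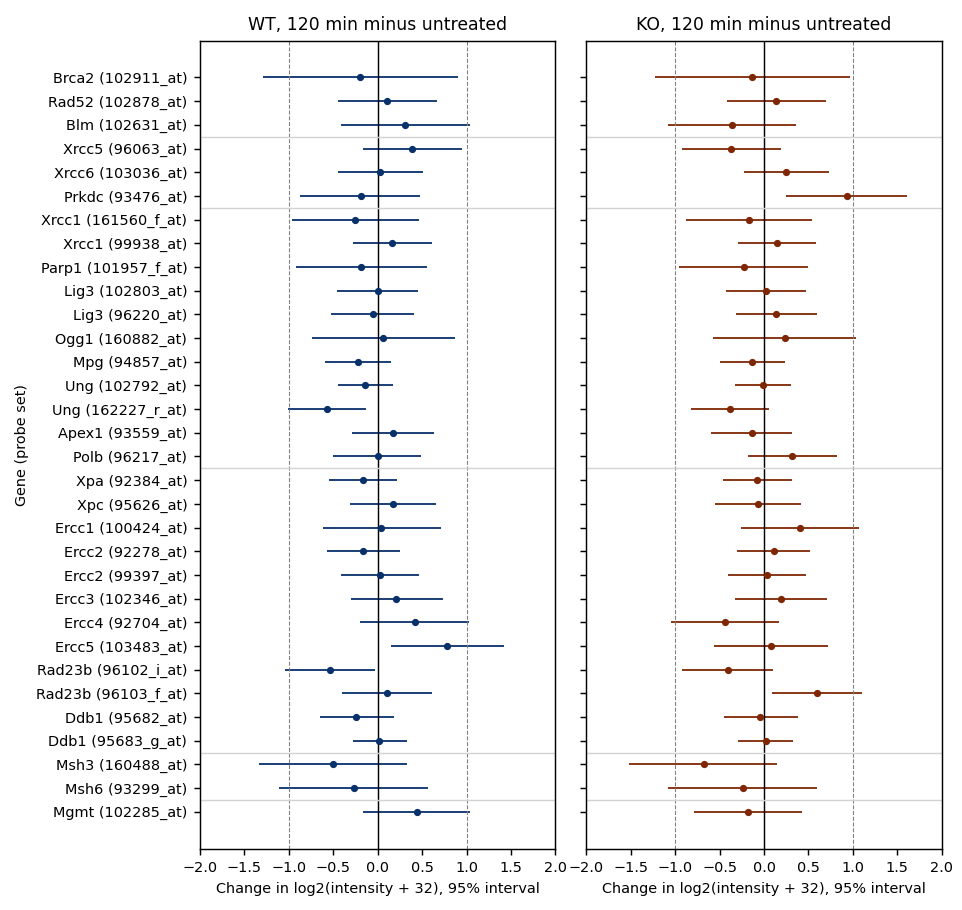
Change from untreated to 120 min on the log2(intensity + 32) scale (horizontal axes) for each tested member probe set (rows), in WT on the left and KO on the right, with points at the estimate and bars for the 95% interval, not adjusted for the number of probe sets. Dashed lines mark -1 and 1, and in each genotype 23 of 32 intervals lie between them.

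The pathways were set side by side by the median, over a pathway's probe sets, of each one's deviation from its own mean of the 6 groups. For base excision this median was 0.05 ± 0.06 (SD, n = 3) in untreated WT, 0.04 ± 0.03 (n = 2) at 30 min and -0.09 ± 0.13 (n = 2) at 120 min. In KO it was 0.09 ± 0.06 (n = 3), -0.04 ± 0.14 (n = 2) and 0.02 ± 0.01 (n = 2). For nucleotide excision it was 0.04 ± 0.08, -0.03 ± 0.04 and 0.03 ± 0.00 in WT and 0.00 ± 0.06, 0.02 ± 0.17 and -0.02 ± 0.05 in KO. The pathways of 3 or fewer probe sets scattered more among replicates, with a pooled SD between arrays of 0.40 for homologous recombination, 0.37 for mismatch repair, 0.34 for direct reversal and 0.18 for end joining, against 0.08 for both excision pathways.

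By median change, base excision stood at 0.03 and -0.05 in WT at 30 and 120 min and at -0.11 and -0.01 in KO, and nucleotide excision at 0.00 and 0.04 in WT and 0.01 and 0.03 in KO. KO against WT without treatment the medians were 0.07 and -0.09. Over all 32 probe sets the medians were 0.02 and 0.01 in WT, 0.01 and -0.03 in KO, and -0.03 between untreated genotypes, beside medians over all tested probe sets from -0.01 to 0.00. No order of the pathways by response can be read from these values, since the medians of both excision pathways lie within 0.11 of 0 in each response and their replicate SD is 0.08. With 1 probe set per gene base excision was at -0.24 and -0.14 in KO at 30 and 120 min. The WT value at 120 min for nucleotide excision was 0.16 without WT untreated A and -0.06 without WT untreated B, and the KO value at 30 min for base excision was 0.15 without KO 30 min A.

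**Figure D4:**
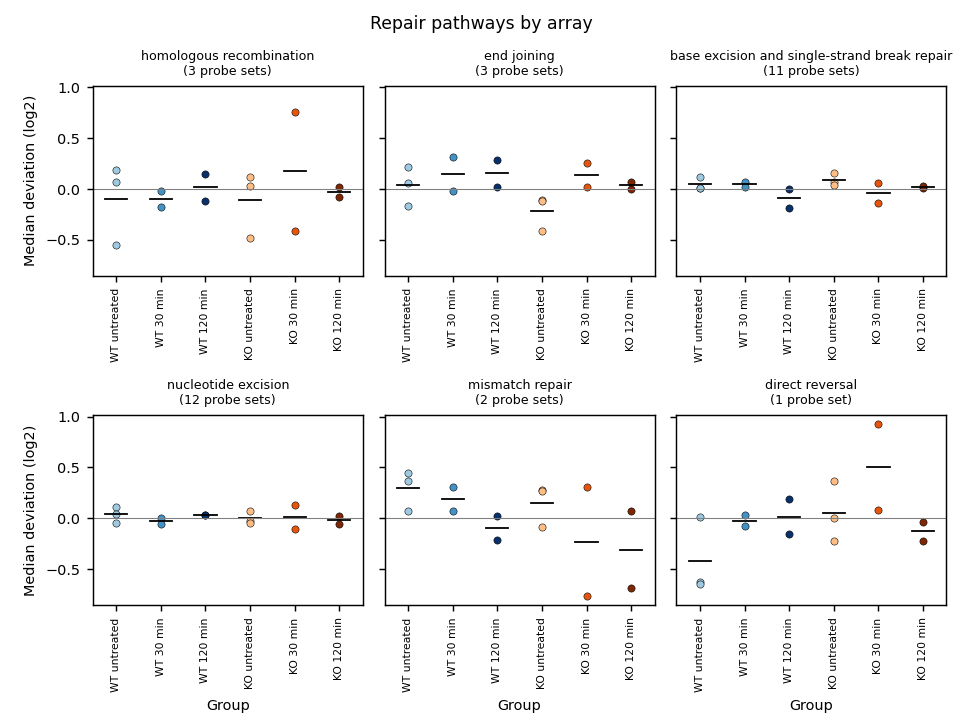
Median deviation, on the log2 scale, of the tested probe sets of each pathway from their own mean of the 6 groups (vertical axes), by group (horizontal axes), with a point for each array and a line at the group mean. The 2 excision pathways lie near 0 in all groups, while the 4 pathways of 1 to 3 probe sets scatter among replicates.

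The upstream sequences were read for what the members share that the rule did not use. RefSeq's table of GRCm38.p6 gave 30 windows for 27 of the 31 genes, and the 250 bases before the listed start were searched on both strands. Their median GC content was 60.6% (44.8% to 70.8%), against 52.4% over 32851 windows. The GC box GGGCGG was in 20 of 30 windows (66.7%, against 32.7% of all), and CCAAT in 17 (56.7% against 33.8%). The TATA box TATAAA was in 1 (3.33% against 12.4%), and TTTGGCGC or TTTCGCGC, forms of the E2F site, in 2 (6.67% against 0.654%). CCGGAAGT, an ETS site, was in 3 (10% against 2.88%) and the NRF1 palindrome in 1 (3.33% against 0.782%). Both windows of Rad54l lie 1 base apart and are nearly the same sequence. With 1 window for each of the 27 genes, counted after the data were seen, the GC box was in 18 (66.7%, against 32.9% of 27025 genes) and CCAAT in 16 (59.3% against 34.5%). A match is a description of these letters and not evidence of binding.

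Of these windows 2 are shown, each 5′ to 3′ along its gene with the matches in capitals. Ddb1 is shown as a member with small changes at 120 min by one probe set. Ung is shown as a member whose 2 probe sets gave changes of unlike size at 120 min. Those of Rad23b and Xrcc1 were unlike there too, with opposite signs. Both were chosen after values were seen. They lie at chr19:10605347-10605596 and chr5:114130185-114130434, both on the plus strand. Ddb1 and Ung each hold 2 GC boxes.
Ddb1: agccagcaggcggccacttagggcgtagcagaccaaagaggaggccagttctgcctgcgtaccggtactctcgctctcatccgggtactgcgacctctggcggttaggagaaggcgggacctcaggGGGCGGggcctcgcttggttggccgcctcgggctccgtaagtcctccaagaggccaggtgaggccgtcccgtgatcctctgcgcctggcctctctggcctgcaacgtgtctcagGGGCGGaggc
Ung: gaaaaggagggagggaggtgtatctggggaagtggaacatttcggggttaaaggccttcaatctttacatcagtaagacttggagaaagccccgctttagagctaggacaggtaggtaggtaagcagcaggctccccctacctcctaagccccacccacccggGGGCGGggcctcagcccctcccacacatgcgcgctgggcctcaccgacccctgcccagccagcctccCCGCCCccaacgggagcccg

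Other repair genes, listed from general knowledge of the same pathways and of lesion bypass, gave no call either. Of 72 listed genes 31 were on the array, and 28 probe sets of 26 genes were tested. By limma 0 of 28 were called in each of the 11 comparisons, while 1 had an unadjusted p under 0.05 in WT at 120 min (8.66% of all tested probe sets did) and 3 in KO at 120 min (7.22%). Their median changes at 120 min were -0.09 in WT and 0.03 in KO. The lowest in WT were Mnat1, a subunit of the kinase module of TFIIH, at -0.59 ± 0.19 by one probe set and 0.16 ± 0.22 by the other, and Polm, an end-joining polymerase, at -0.40 ± 0.20. Highest in WT were Rad51d, a paralog of the recombinase, at 0.42 ± 0.27, and Rpa2, a subunit of the single-strand binding protein, at 0.42 ± 0.36. In KO the lowest were Fancc, a subunit of the Fanconi core complex that acts on crosslinks, at -0.88 ± 0.23, and Polm at -0.56 ± 0.20. Highest in KO were Rpa2 at 0.81 ± 0.36 and the replicative ligase Lig1 at 0.50 ± 0.45 by one probe set and 0.13 ± 0.19 by the other. Over the irradiated groups Fancc, whose value in that comparison is given after it was seen, averaged -0.59 ± 0.14 (adjusted p = 0.174 by limma).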

How the data were processed

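RNA labelled as mouse lymph node was hybridised to 14 one-colour arrays. The deposited values are intensities on a linear scale, from 0 to 15198.3, one per probe set and array. The sources used here do not name the software that made them. Without the highest and lowest 2% of values, every array had a mean of 150.1. Array medians of log2(intensity + 32) spanned 0.273, so these log2 values, computed from the deposited intensities, were quantile normalized. The 66 control probe sets were left out. Gene names came from the platform annotation, with 0 symbols changed through Entrez IDs.

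A model of 6 group means was fitted with limma 3.58.1 in R 4.3.3, with 8 residual and 4.56 prior degrees of freedom, and tested on simulated data. Adjustment of p-values followed Benjamini and Hochberg over 8938 probe sets. Precision is limited by the number of arrays. The members and lists were chosen with earlier results of these data known. Every member is accounted for. The rule for named probe sets takes the 3 of smallest p in each pathway (1 for direct reversal) and any that was called, and, of the other repair genes, the 2 highest and 2 lowest changes in a comparison whose counts are given. Array values of Parp1, Ogg1, Ddb1, Ercc4 and the second probe sets of Ung and Rad23b were added after they were seen. Medians are given for lists of 10 or more tested probe sets, since those of the smaller pathways are their members. Replicate letters do not pair the arrays. Alternatives were the offset, a floor, the normalization, the filter, the groups fitted, the replicate block, trend, array weights and each array left out.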

Additional observations from a re-analysis of the deposited data

How the results depend on the processing

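No named probe set was called in any of 4183 values under the alternatives. The count of members called stayed at 0 in each of the 11 comparisons under the 12 alternatives that keep all arrays or drop 3 (11 for the averages over conditions, which use all groups). Leaving out 1 array gave a range of 0 to 1 for KO at 30 min, where Parp1 was called without KO 30 min B (-1.23, adjusted p = 0.0384 by limma), a fit in which KO 30 min A alone stands for that group and is assumed to vary like the others. In the other 10 comparisons it gave 0. The count over all probe sets moved more. It was 9 in WT at 30 min (5 to 11 over all alternatives), 46 in WT at 120 min (13 to 66), 0 in KO at 30 min (0 to 240, the highest without KO 30 min B), 0 in KO at 120 min (0 to 11) and 0 between untreated genotypes (0 to 7). It was 9 and 23 for KO against WT at 30 and 120 min (0 to 121 and 4 to 63) and 15 for their average (9 to 43). It was 7 and 12 for the differences of response (0 to 28 and 3 to 21) and 12 for the average over irradiated groups (6 to 24). The highest counts for KO against WT at 30 min, for the average over conditions, for the difference of responses at 30 min and for the irradiated average (121, 43, 28 and 24) also came without KO 30 min B. Those in KO at 120 min and between untreated genotypes (11 and 7) came without KO 120 min B and KO untreated B, and the lowest in WT at 120 min (13) without WT 120 min B.

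With the replicate block the members called remained 0 in all 11 comparisons and the median over all members in WT at 120 min was -0.05. The letters do not pair the arrays: same-letter deviations correlated between -0.121 and 0.0844, and 0 arrays matched their own letter best in every other group. Of 2021 pathway medians under alternatives 1916 moved by less than the replicate SD and 105 by more. This count pools all pathways, also the small ones whose medians are not given. Their SD was 0.4 for homologous recombination, 0.37 for mismatch repair, 0.34 for direct reversal and 0.18 for end joining, which few moves would exceed. For the medians given here the SD was 0.08 in both excision pathways and 0.06 over all members. The pooled count therefore does not show how stable those medians are. Median centring gave 0.12 for nucleotide excision in WT at 120 min. With 1 probe set per gene base excision was at -0.24 and -0.14 in KO at 30 and 120 min, and all members at -0.10 in KO at 120 min. Without the 3 arrays of lowest correlation (KO 30 min A, KO 120 min A and WT untreated A), chosen after seeing the data, base excision was at 0.03 in WT at 120 min and 0.15 in KO at 30 min, nucleotide excision at 0.16 and -0.08, and all members at -0.06 in KO at 30 min and 0.04 at 120 min. Leaving out 1 array gave, for all members, -0.05 to 0.04 and -0.06 to 0.06 in WT at 30 and 120 min, -0.06 to 0.10 and -0.08 to 0.03 in KO, and -0.04 to 0.04 between untreated genotypes. For base excision it gave -0.11 to 0.03 in WT at 120 min, and -0.17 to 0.15 and -0.12 to 0.01 in KO. For nucleotide excision it gave -0.06 to 0.16 in WT at 120 min, and -0.08 to 0.11 and -0.07 to 0.08 in KO. Dim probe sets limit what can be seen, since 10 of 42 were not tested and 16 of the 32 tested lay below the 40th percentile on some arrays. The deposited table, as used here, carries no detection calls.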
